A study of Mus musculus with 6 samples.

Results

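The 9 genes described here encode the surface glycoproteins and secreted proteins by which megakaryocytes and platelets are recognised: Gp5, Gp9, Gp1ba, Gp1bb, Itga2b, Itgb3, Pf4, Ppbp and Vwf. They were chosen by name, with earlier results of these data known. Their counts set against the share of all genes may partly reflect that choice. All 9 are among the 20284 named genes on the arrays, and each was read from its brightest probe. RNA came from KSL cells (c-Kit+ Sca1+ Lineage-), the fraction that holds blood-forming stem cells, of C57BL6 mice. The targeted gene is Tif1b, now called Trim28, a corepressor of transcription. Fetal liver gave 1 WT sample, Tie2-Cre with Tif1bw/w, and 1 KO sample, Tie2-Cre with Tif1bf/f. Adult bone marrow gave 2 WT samples, CreERT with Tif1bw/w, and 2 KO samples, CreERT with Tif1bf/f. All groups therefore carry a Cre transgene. Tie2-Cre acts in endothelial and blood-forming cells, and CreERT needs a drug to become active, so the tissues differ in how the gene was deleted. The genotype labels of the second bone marrow pair print Tif2b (their background is written C57/BL6) and were read as Tif1b. Whether the replicates were different animals is not in the labels, and the p-values may measure technical spread only.

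Megakaryocytes are the large marrow cells that shed platelets. On platelets, Gp1ba, Gp1bb, Gp9 and Gp5 form the receptor for von Willebrand factor (Vwf), which tethers platelets to damaged vessel walls. Itga2b (CD41) and Itgb3 (CD61) form the integrin that binds fibrinogen and lets platelets aggregate. Pf4 and Ppbp are CXC chemokines stored in the alpha granules. Itga2b, Pf4 and Vwf are also transcribed in stem cells that lean towards the megakaryocyte lineage.

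Levels are log2 signals relative to the 75th percentile of the array, and differences are KO minus WT on that scale unless stated otherwise. The 75th percentile itself was a signal of 211 to 743, and 24383 to 31419 of 55681 probes per array were well above background. One array stood apart, the one labelled WT replicate 1 of bone marrow. Its scanner file and its column in the authors' deposited value table matched within 1% for 1.40% of probes, against 100% for the other 5 arrays. Kit, which encodes the c-Kit used for sorting, read 1.30 in that scanner file, 4.16 in the table column and 4.35 on the array of WT replicate 2. Ly6a, the gene of Sca1, was at 4.48, 3.36 and 4.75 there. The description lines of both arrays of replicate 1 name knockdowns of other genes, and the bone marrow results of the 9 genes and of each gene list are given from both sources. Trim28 was at 2.45 in the doubtful scanner file, 5.18 in its table column, 5.55 in WT replicate 2, 1.28 and 0.75 in bone marrow KO, and 5.97 and 1.68 in fetal liver WT and KO. It fell in the table by 4.34 ± 0.31 (SE, 2 arrays per genotype, limma adjusted p = 0.0149), whereas the scanner files gave -2.98 ± 1.07 (adjusted p = 1.00). Each slide held 1 WT and 1 KO array of a tissue, and in bone marrow the slide carries the replicate number, called pair 1 and pair 2 here.

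In bone marrow KO was higher than WT for 7283 of 13011 genes in the scanner files and for 5650 of 12783 in the table. All 9 genes described here had a higher mean in KO than in WT, in both sources. Their median difference was 4.27 by the scanner files but 0.90 by the value table, against 0.06 and -0.05 over all genes tested. In the table Gp9 and Gp5 differed most, by 3.46-fold and 3.29-fold, and Gp1bb and Itgb3 least, by 1.03-fold and 1.13-fold. The scanner differences were far larger for all but Itgb3, and 4 of the 9 genes were well above background in the scanner file of WT replicate 1, against 9 of 9 in its table column and on the other 3 bone marrow arrays. In pair 1 the median difference was 7.40 by the scanner files and 0.72 by the table, and in pair 2 it was 1.21 in both. In sorted cells measured in bulk, fewer cells of a type and less RNA per cell cannot be told apart.

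None of the 9 passed an adjusted p of 0.05 (limma, Benjamini-Hochberg over all genes) in either source when the slide was not in the model. In the scanner files 1 of 9 had an unadjusted p under 0.05, and 0% of 13011 genes passed (548 at an unadjusted p under 0.05). The table had 5 of 9 with an unadjusted p under 0.05, and 0.477% of 12783 genes were called higher (1411 genes had an unadjusted p under 0.05). With the slide as a block, Gp9, Gp5 and Gp1ba rose in the table, 3 of 9 genes where 3.96% of all genes were called higher. In the scanner files with the block 0 of 9 passed by limma (5 at an unadjusted p under 0.05), as did 0% of all genes (699 at an unadjusted p under 0.05). Both KO arrays lay above both WT arrays for 6 of the 9 genes in the table and for 8 in the scanner files, against 17.6% and 15.4% of all genes tested. KO was higher than WT in both pairs for 6 of 9 in the table and 8 of 9 in the scanner files, where 30.6% and 23.6% of all genes were. In the scanner files Gp5, Gp1ba, Itga2b, Pf4 and Ppbp were not well above background in WT replicate 1. There they entered the bone marrow test only through the KO arrays. Their direction in that source was thus partly set by the filter and by the array in doubt.

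**Figure D1:**
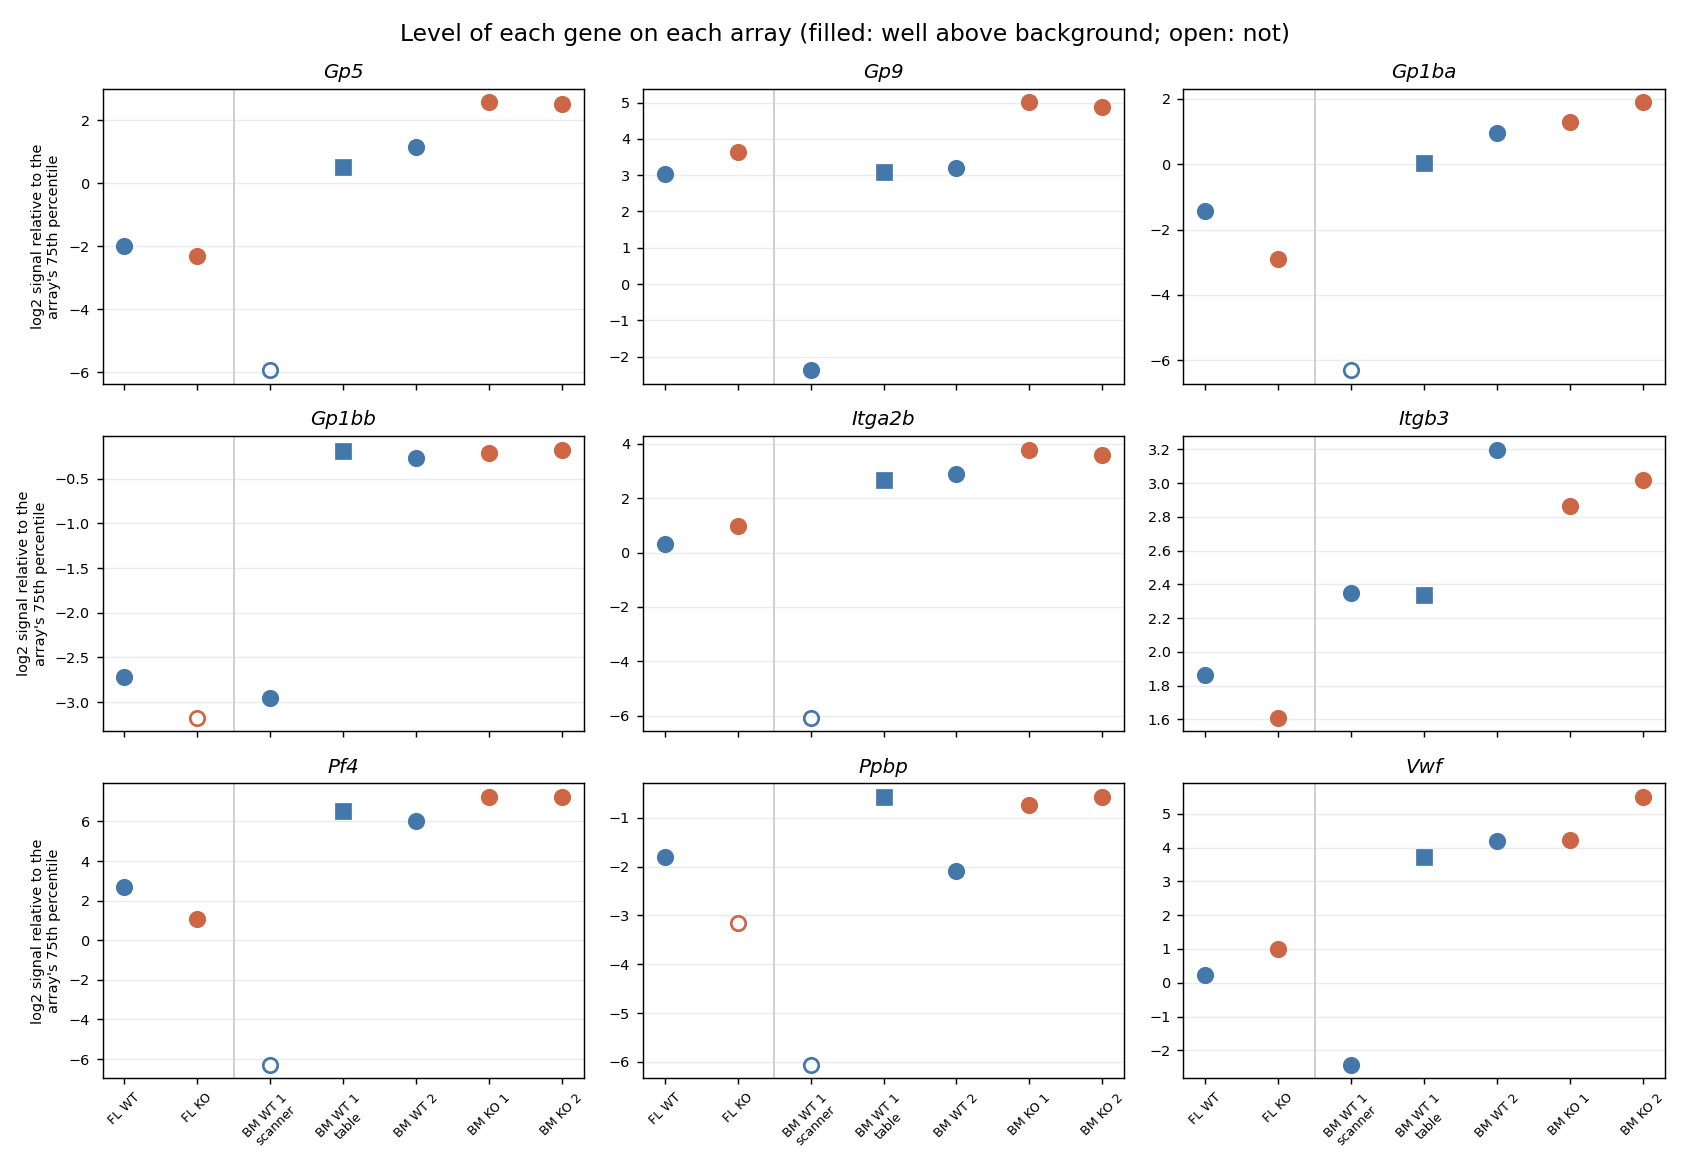
Log2 signal relative to the array's 75th percentile (y axis, with its own range for each gene) of the 9 genes on each array (x axis; FL fetal liver, BM bone marrow; blue WT, red KO; circles scanner files, squares the value table's column; open circles were not well above background). The scanner point of bone marrow WT replicate 1 lies far below the other bone marrow points for every gene except Itgb3, and the Gp9 points of KO marrow, 5.01 and 4.88, stand above those of WT.

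Among the subunits of the Gp1b receptor, Gp9 and Gp5 had the widest gap between KO and WT marrow. Gp9, a small subunit needed for the complex to reach the cell surface, was at 3.10 in the table column of WT replicate 1 (-2.38 in its scanner file), 3.21 in WT replicate 2, and 5.01 and 4.88 in the KO replicates. The KO arrays were close to each other and all WT values lay below them. The table difference was 1.79 ± 0.25 (SE, 2 arrays per genotype; limma adjusted p = 0.0538, and 0.00890 with the slide block), from 1.91 in pair 1 and 1.67 in pair 2. The scanner difference was 4.53 ± 1.82 (adjusted p = 1.00). In fetal liver Gp9 was at 3.04 in WT and 3.64 in KO, a difference of 0.61.

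Gp5, the subunit that thrombin cleaves, was at 0.50 in the table column of WT replicate 1 (-5.95 in the scanner file, not well above background), 1.14 in WT replicate 2, and 2.57 and 2.50 in KO. WT and KO did not overlap in either source. In the table KO exceeded WT by 1.72 ± 0.31 (limma adjusted p = 0.0976, and 0.0188 with the slide block), with 2.07 and 1.36 in the pairs. The scanner files gave 4.94 ± 2.29 (adjusted p = 1.00). In fetal liver the gene was at -2.01 in WT and -2.31 in KO.

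Gp1ba, the chain that carries the binding site for Vwf, was at 0.03 in the table column (-6.31 in the scanner file, not well above background), 0.97 in WT replicate 2, and 1.30 and 1.90 in KO. The replicates of each genotype were further apart than those of Gp9. The table difference was 1.10 ± 0.41 (limma adjusted p = 0.416, and 0.0324 with the slide block), with 1.27 and 0.93 in the pairs. The scanner difference was 4.27 ± 2.36 (adjusted p = 1.00). In fetal liver the order was the other way, with -1.43 in WT and -2.89 in KO, a difference of -1.46.

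Gp1bb, the chain disulphide-linked to Gp1ba, had nearly equal values in WT and KO marrow. It was at -0.20 in the table column (-2.96 in the scanner file), -0.27 in WT replicate 2, and -0.21 and -0.17 in KO. The difference was 0.04 ± 0.24 in the table and 1.42 ± 0.93 in the scanner files (limma adjusted p = 0.993 and 1.00). In fetal liver it was at -2.72 in WT and -3.17 in KO, where it was not well above background, so that WT was at least 1.37-fold higher. Its other probes were dimmer. The first was above background only on the array of WT replicate 2, at -1.97, and the second was at -3.42 there and at -3.66 and -3.34 in KO. Gp1bb overlaps Septin5 in the RefSeq gene table, and which of the overlapping genes each probe reads is uncertain.

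The promoters of Gp5, Gp9 and Gp1ba, which rose with the slide block, and of Pf4 are shown as examples. Their KO effects ran alike in marrow, while in fetal liver Gp9 was higher in KO and the other 3 were lower. The marrow effect was not particular to these 4. Itga2b, whose promoter is not printed, differed there by 0.90 in the table, against 0.96 for Pf4. Each is the stretch of 250 bases before the gene's start in RefSeq (GRCm38.p6), written 5′ to 3′ in the direction of the gene. Capitals mark the words AGATAA or AGATAG with their relatives TGATAA or TGATAG, which GATA factors bind, and the words AGGAAG or CGGAAG, which ETS factors bind, on either strand. The Gp5 stretch is chr16:30310782-30311031 (minus strand), that of Gp9 chr6:87777820-87778069 (plus strand), that of Gp1ba chr11:70638872-70639121 (plus strand) and that of Pf4 chr5:90772185-90772434 (plus strand).
Gp5: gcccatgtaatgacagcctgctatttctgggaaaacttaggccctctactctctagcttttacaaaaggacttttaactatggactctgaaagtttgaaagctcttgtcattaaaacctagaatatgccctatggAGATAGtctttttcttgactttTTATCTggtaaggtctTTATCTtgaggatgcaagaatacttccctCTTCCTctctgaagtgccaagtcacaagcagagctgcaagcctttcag
Gp9: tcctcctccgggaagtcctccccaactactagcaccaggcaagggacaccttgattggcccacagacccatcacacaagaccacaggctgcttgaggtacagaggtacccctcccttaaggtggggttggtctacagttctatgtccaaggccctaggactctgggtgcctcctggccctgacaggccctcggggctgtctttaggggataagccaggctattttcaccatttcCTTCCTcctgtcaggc
Gp1ba: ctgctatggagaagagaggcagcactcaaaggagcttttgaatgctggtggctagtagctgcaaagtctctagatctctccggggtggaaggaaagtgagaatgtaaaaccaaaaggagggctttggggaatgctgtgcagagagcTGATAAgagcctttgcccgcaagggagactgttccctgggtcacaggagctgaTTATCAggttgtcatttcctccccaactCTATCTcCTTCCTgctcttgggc
Pf4: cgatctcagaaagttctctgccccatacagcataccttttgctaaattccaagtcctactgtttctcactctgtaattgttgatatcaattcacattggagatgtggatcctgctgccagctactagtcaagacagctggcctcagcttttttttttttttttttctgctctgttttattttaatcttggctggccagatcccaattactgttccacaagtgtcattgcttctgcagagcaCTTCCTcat

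Gp5 and Gp1ba each held 3 GATA words and 1 ETS word, while Gp9 and Pf4 held 1 ETS word and no GATA word. The ETS words began 48, 16, 16 and 9 bases before the start in Gp5, Gp9, Gp1ba and Pf4. A promoter was found for 7 of the 9 genes, all but Itgb3 and Vwf. Of these, 6 held an ETS word and 3 a GATA word, against 39.2% and 26.5% of 32851 promoter stretches of that length. The word TGACAG, bound by MEIS factors, was in 3 of the 7 (Gp5, Gp9 and Itga2b) and in 15.9% of all, and TATAAA was in 1, Ppbp, and in 12.4% of all. These matches describe letters and do not show binding.

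Vwf, the ligand of the Gp1b receptor, is made by endothelial cells as well as by megakaryocytes. It was at 3.72 in the table column of WT replicate 1 (-2.43 in the scanner file), 4.20 in WT replicate 2, and 4.22 and 5.50 in KO. The lower KO value lay just above the higher WT value. By the table KO was higher by 0.90 ± 0.48 (limma adjusted p = 0.632, and 0.0987 with the slide block), from 0.51 in pair 1 and 1.30 in pair 2. By the scanner files it was higher by 3.98 ± 2.19 (adjusted p = 1.00). In fetal liver Vwf was at 0.23 in WT and 0.99 in KO.

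Of 15 endothelial marker genes 10 were tested in bone marrow in the table. Of these 5 were higher in KO, with a median of -0.09. By limma 0 passed without the slide block, and 1 was called lower with it, as were 475 of 12783 genes. In the scanner files, by contrast, 6 of 9 endothelial genes were higher, with a median of 1.22. There 0 passed by limma with or without the block. The gene called lower in the table, Flt1, a receptor for vascular growth factors, differed by -1.57 ± 0.25 (adjusted p = 0.0746, and 0.0105 with the block). Flt1 was well above background on 2 WT arrays and on 1 KO array. The angiopoietin receptor gene Tek differed by 0.69 ± 0.51 and its relative Tie1 by 0.68 ± 0.45 (adjusted p = 0.807 and 0.760). The summed signal of the endothelial markers was 7.3 (value table) and 7.0 in WT and 7.6 and 7.0 in KO. Signals were summed before taking the log, so the brightest genes weigh most. Most of this sum was Egfl7, at 7.1 (value table) and 6.6 in WT and 7.3 and 6.6 in KO. The part of the endothelial markers in the Vwf values was not tested.

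Of the fibrinogen receptor, the alpha chain gene was higher on both KO arrays and the beta chain gene lay within the WT range. Itga2b was at 2.68 in the table column (-6.07 in the scanner file, not well above background), 2.88 in WT replicate 2, and 3.79 and 3.58 in KO. The table gave a difference of 0.90 ± 0.26 (limma adjusted p = 0.254, and 0.0555 with the slide block), with 1.11 and 0.70 in the pairs. The scanner files put it at 5.28 ± 2.88 (adjusted p = 1.00). In fetal liver the gene was at 0.30 in WT and 0.99 in KO, a difference of 0.69.

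Itgb3 had nearly the same level in both sources of WT replicate 1, 2.35 from the scanner and 2.34 from the table column. It was at 3.20 in WT replicate 2 and at 2.87 and 3.02 in KO. The difference was 0.17 ± 0.36 in the table and 0.17 ± 0.45 in the scanner files (limma adjusted p = 0.982 and 1.00), with opposite signs in the table's pairs (0.53 and -0.18). A dimmer second probe disagreed in pair 2: it was at -2.07 (table) and -2.23 in WT and at -1.04 and -1.88 in KO. In fetal liver Itgb3 was at 1.86 in WT and 1.61 in KO.

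The chemokine genes Pf4 and Ppbp are neighbours on chromosome 5, between Cxcl5 and Cxcl3 in the RefSeq gene order. Pf4 was at 6.52 in the table column (-6.30 in the scanner file, not well above background), 6.04 in WT replicate 2, and 7.24 and 7.25 in KO. The KO arrays were nearly equal and lay above both WT values. The table difference was 0.96 ± 0.28, or 1.95-fold (limma adjusted p = 0.270, and 0.0538 with the slide block), with 0.72 and 1.21 in the pairs. The scanner difference was 7.37 ± 3.95 (adjusted p = 1.00). In fetal liver Pf4 was at 2.69 in WT and 1.08 in KO, a ratio of 0.327.

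Ppbp had the least steady WT values in the table. It was at -0.57 in the table column (-6.06 in the scanner file, not well above background), -2.08 in WT replicate 2, and -0.74 and -0.57 in KO, so that WT overlapped KO in the table. The table difference was 0.67 ± 0.52 (limma adjusted p = 0.826), from -0.16 in pair 1 and 1.51 in pair 2. The scanner difference was 3.42 ± 1.32 (adjusted p = 1.00). In fetal liver it was at -1.81 in WT and -3.15 in KO, where it was not well above background, so that WT was at least 2.53-fold higher.

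Single arrays decided which of these genes passed. Without WT replicate 1, the array in doubt, 8 of 9 genes were still higher in KO in the scanner files and Itgb3 was lower (-0.26). Gp9 then differed by 1.74, Ppbp by 1.43, Gp5 by 1.39 and Pf4 by 1.21, and 0 of 9 passed by limma (4 at an unadjusted p under 0.05; lowest adjusted p = 0.216), where 0.522% of all genes were called higher. Without WT replicate 2 the scanner files set KO against the array in doubt alone, and 8 of 9 passed, where 8.50% of all genes were called higher. In the table Gp5 and Gp9 passed without WT replicate 2 (adjusted p = 0.00802 and 0.0207) and without KO replicate 2 (0.0496 and 0.0215), where 2.13% and 2.38% of all genes were called higher. Each of these fits leaves a lone array in a group, which is assumed to vary like the other group.

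**Figure D2:**
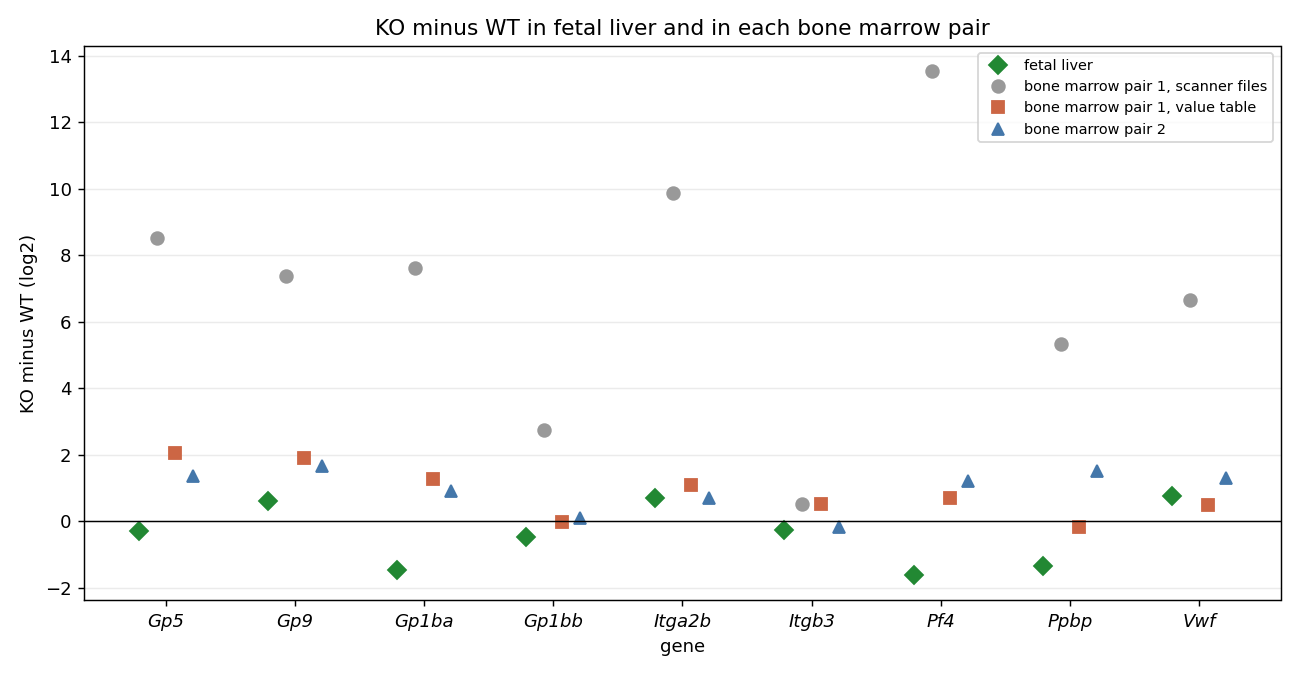
KO minus WT in log2 (y axis) for the 9 genes (x axis) in fetal liver (diamonds), in bone marrow pair 1 from the scanner files (circles) and from the value table (squares), and in bone marrow pair 2 (triangles). The circle of Pf4 reaches 13.54, the squares and triangles lie between -0.18 and 2.07, and the diamonds of Gp1ba, Pf4 and Ppbp are the lowest, at -1.46, -1.61 and -1.34.

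In fetal liver 3 of the 9 genes were higher in KO (Gp9, Itga2b and Vwf, by 0.61, 0.69 and 0.76) and 6 were lower. The median was -0.30, against -0.07 over 12701 genes. Pf4, Gp1ba and Ppbp were at least 2-fold lower, as were 4.42% of all genes, and 0 of the 9 were at least 2-fold higher, as were 5.33% of all genes. With 1 array per genotype these differences have no test. Gp5, Gp1ba and Pf4 were higher in KO in both bone marrow pairs of the table and lower in fetal liver KO, as were 13.3% of all genes. By the scanner files Gp1bb and Ppbp joined them, 5 of 9 where 1638 of 13661 genes had that pattern.

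Whether the KO effect differed between the tissues was tested as bone marrow effect minus fetal liver effect, taking the spread of the single fetal liver arrays to equal that in bone marrow. In the table the difference was 2.57 ± 0.50 for Pf4, 2.56 ± 0.73 for Gp1ba, 2.01 ± 0.54 for Gp5, 2.01 ± 0.92 for Ppbp and 1.19 ± 0.43 for Gp9. It was 0.49 ± 0.42 for Gp1bb, 0.43 ± 0.63 for Itgb3, 0.21 ± 0.45 for Itga2b and 0.14 ± 0.84 for Vwf. Gp9, Itga2b and Vwf were higher in KO in both tissues. Without the slide block 0 of 9 passed by limma (adjusted p from 0.257 to 1.00, 4 at an unadjusted p under 0.05), as did 0% of all genes (950 at an unadjusted p under 0.05). With the block Gp1ba and Pf4 passed (adjusted p = 0.0393 and 0.0452) and Gp5 did not (0.103), where 1.29% of all genes were called in that direction.

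The scanner files gave 8.98 ± 6.93 for Pf4, 5.73 ± 4.13 for Gp1ba and 5.24 ± 4.01 for Gp5. There 0 of 9 passed by limma with or without the block (0 at an unadjusted p under 0.05 in both), as did 0% of all genes (351 and, with the block, 454 at an unadjusted p under 0.05). Without WT replicate 1 the scanner difference was 2.82 for Pf4, 2.09 for Gp1ba and 1.69 for Gp5 (adjusted p = 0.215, 0.633 and 0.914), where 0.263% of all genes were called higher.

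**Figure D3:**
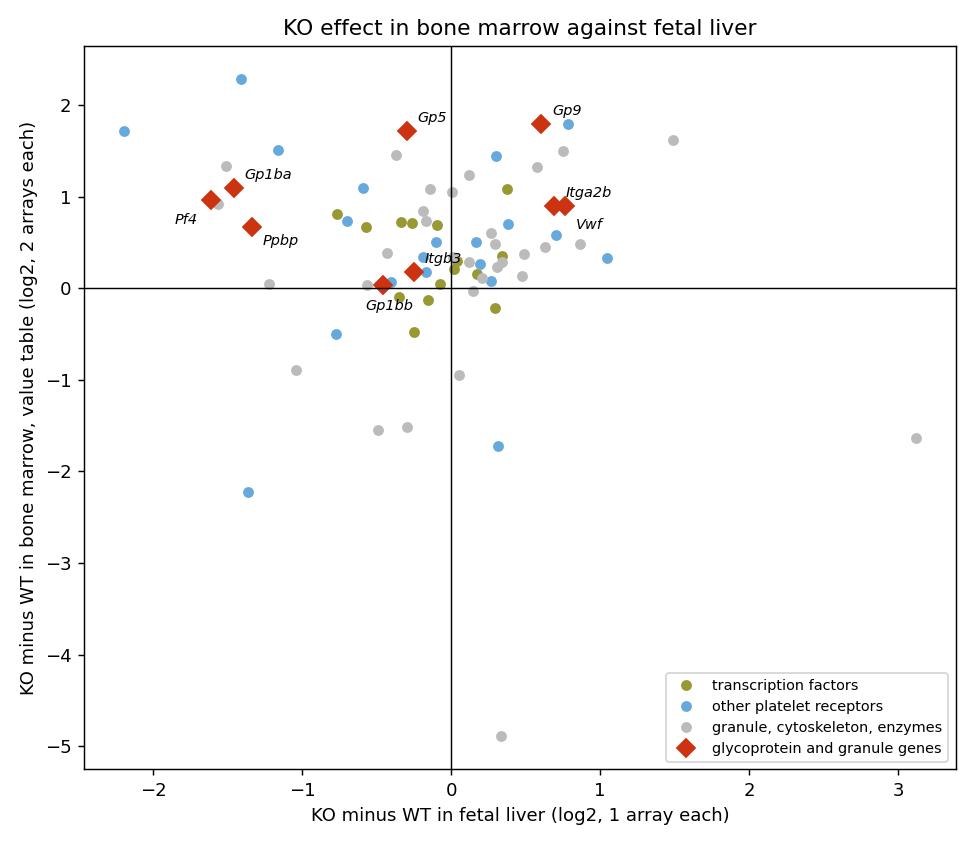
KO minus WT in bone marrow from the value table (y axis, log2, 2 arrays per genotype) against KO minus WT in fetal liver (x axis, log2, 1 array per genotype) for the 9 genes (red diamonds) and for the other megakaryocyte and platelet genes (circles, coloured by list). All 9 diamonds lie above 0 on the y axis, from 0.04 for Gp1bb to 1.79 for Gp9, and 6 of them lie left of 0 on the x axis.

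Bone marrow KSL cells held more signal of these genes than fetal liver KSL cells in the value table. With tissue and genotype in the model and all 6 arrays, 7 of 9 rose from fetal liver to bone marrow, where 8.92% of all genes were called higher. The difference was 4.88 ± 0.59 for Pf4, 3.84 ± 0.49 for Gp5, 3.80 ± 0.39 for Vwf, 3.21 ± 0.64 for Gp1ba, 2.73 ± 0.20 for Gp1bb, 2.59 ± 0.19 for Itga2b and 1.12 ± 0.30 for Itgb3 (limma adjusted p from 0.00255 to 0.0476). Gp9 differed by 0.71 ± 0.30 and Ppbp by 1.49 ± 0.61 (adjusted p = 0.136 and 0.122). With the slide as a random block 4 passed, Itga2b, Gp1bb, Vwf and Pf4 (adjusted p from 0.0137 to 0.0458), where 2.75% of all genes were called higher.

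In the scanner files 0 of 9 passed in this comparison (1 at an unadjusted p under 0.05, lowest limma adjusted p = 0.133), where 0.871% of all genes were called higher (1.02% with the random slide block, again 0 of 9), and Gp9 had the opposite sign, -0.66 ± 1.74. Without WT replicate 1 the scanner files gave 7 of 9, where 4.75% of all genes were called higher. Tissue goes with the Cre line and with the slide, and these cannot be told apart.

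Other genes of the lineage were mostly higher in KO marrow too. Of all genes, 5650 of 12783 were higher there in the table and 7283 of 13011 in the scanner files. Of 15 genes for megakaryocyte transcription factors, 11 were higher in the table, with a median of 0.30 (10 of 15 and 0.45 in the scanner files). By limma 0 passed without the slide block and 1, Gata2, rose with it, where 506 of 12783 genes rose and 475 fell. Gata2, a factor of stem cells and early progenitors, differed by 1.08 ± 0.30 (adjusted p = 0.243, and 0.0344 with the block). Gfi1b, a repressor needed for platelet formation, differed by 0.81 ± 0.33 and Tal1, a partner of GATA factors, by 0.73 ± 0.28 (adjusted p = 0.464 and 0.420).

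Of 25 other platelet receptor genes 20 were tested in the table and 17 were higher in KO marrow, with a median of 0.51 (17 of 20 and 1.53 in the scanner files). By limma 0 passed without the slide block, and with it 6 rose and 2 fell, where 506 and 475 of 12783 genes did. F2rl3, a thrombin receptor, differed by 1.80 ± 0.36 (adjusted p = 0.126, and 0.00801 with the block). Itga2, a chain of a collagen receptor, was not well above background in WT, and KO exceeded it at least 1.81-fold (adjusted p = 0.147, and 0.0204 with the block). It was tested only through the KO arrays, so its direction was set by the filter. Ptgir, the receptor for prostacyclin, which restrains platelets, differed by -2.22 ± 0.40 (adjusted p = 0.0988, and 0.0239 with the block).

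Of 35 genes for granule cargo, cytoskeleton and enzymes of platelets 32 were tested in the table and 25 were higher in KO marrow, with a median of 0.38 (22 of 31 and 1.02 in the scanner files). By limma 0 passed without the slide block, and with it 7 rose and 4 fell, where 506 and 475 of 12783 genes did. F13a1, a clotting factor gene that monocytes also express, was at 6.60 (table) and 5.35 in WT and at 2.77 and -0.60 in KO (adjusted p = 0.168, and 0.00958 with the block). Thbs1, which encodes thrombospondin, differed by -1.64 ± 0.39 and the tubulin gene Tuba8 by 1.62 ± 0.42 (adjusted p = 0.187 and 0.222). In fetal liver the 3 lists had medians of -0.09, 0.03 and 0.13, and Thbs1 was higher in KO by 3.12.

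Genes of other blood cells differed in the same comparison, and their part in the values of the 9 genes was not tested. The calls that follow are those of the value table. There 61 of 12783 genes rose and 51 fell without the slide block, and 506 rose and 475 fell with it. Of all genes, 5650 of 12783 were higher in KO marrow in the table and 7283 of 13011 in the scanner files. In the scanner files no gene of any list passed by limma, with or without the block (0 of 13011 genes in each, 548 and 699 at an unadjusted p under 0.05).

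Of 12 neutrophil genes 0 were higher in KO marrow in the table, with a median of -3.03, and 0 of 12 were higher in the scanner files, with a median of -4.03. By the table, 4 fell without the slide block (limma adjusted p from 0.0189 for S100a9 to 0.0443 for Mmp8, with Elane and Camp between) and 10 with it. Mmp8 was not well above background in KO and was at least 5.37-fold lower there. It was tested only through the WT arrays, so its direction was set by the filter. S100a9, which encodes a calcium-binding protein of neutrophils, differed by -3.21 ± 0.27 in the table and -5.41 ± 1.49 in the scanner files. The summed signal of the list was 11.26 (value table) and 10.37 in WT and 9.07 and 7.41 in KO. Of 9 monocyte, macrophage and dendritic genes 2 were higher in the table, with a median of -2.46, and 0 of 9 were higher in the scanner files, with a median of -3.42. Without the block 4 fell in the table, Csf1r, Irf8, Mpeg1 and Ly86, and with it 6 fell. Csf1r, the receptor for a monocyte growth factor, differed by -3.00 ± 0.40 in the table and by -4.29 ± 1.18 in the scanner files. The summed signal was 8.63 (value table) and 8.08 in WT and 7.75 and 7.65 in KO. Most of that sum was Siglech, at 7.9 (value table) and 7.6 in WT and 7.5 and 7.5 in KO. The sum therefore says little about Csf1r, Irf8, Mpeg1 and Ly86.

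Of 9 mast cell genes 7 were higher in KO marrow in the table, with a median of 2.13, and 8 of 9 were higher in the scanner files, with a median of 2.55. By the table, 0 passed by limma without the slide block and 5 rose with it. The IgE receptor genes Fcer1a and Ms4a2 differed by 2.92 ± 0.43 and 2.39 ± 0.53 and the protease gene Cpa3 by 2.69 ± 0.60 (adjusted p = 0.0636, 0.162 and 0.162). Ms4a2 was well above background on 1 WT array and on 2 KO arrays. The summed signal was 5.01 (value table) and 5.21 in WT and 7.06 and 6.48 in KO.

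Of 13 erythroid genes 11 were higher in the table, with a median of 1.53, and 10 of 13 were higher in the scanner files, with a median of 0.58. By the table, 0 passed without the block and 6 rose with it. Hba-a1 and its near-identical copy Hba-a2, globin genes which probes may not separate, differed by 5.60 ± 1.30 and 5.50 ± 1.30 (adjusted p = 0.175 and 0.181). Alas2, an enzyme of haem synthesis, was not well above background in WT and KO exceeded it at least 5.51-fold (adjusted p = 0.232). Alas2 was tested in the table only through the KO arrays, so its direction was set by the filter. In the scanner files these 3 genes differed by 0.35 ± 3.64, 0.68 ± 3.46 and 0.08 ± 3.48. The summed signal was 5.81 (value table) and 5.98 in WT and 9.40 and 7.38 in KO.

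Of 15 stem cell genes 10 were higher in the table, with a median of 0.67, and 14 of 15 were higher in the scanner files, with a median of 1.83. Thy1 rose by 2.75 ± 0.34 in the table (limma adjusted p = 0.0429) and differed by 1.39 ± 0.77 in the scanner files. With the slide block 4 genes of the list rose in the table and 1 fell. The summed signal was 8.56 (value table) and 8.21 in WT and 8.66 and 8.40 in KO.

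For lymphoid genes the sources differed. Of 6 tested B lymphoid genes 3 were higher in the table, with a median of -0.07, whereas 0 of 10 were higher in the scanner files, with a median of -2.96. By the table, 0 passed without the block and 2 fell with it. The recombinase gene Rag2 differed by -1.96 ± 0.42 and the surrogate light chain genes Vpreb1 and Vpreb3 by -1.69 ± 0.25 and 0.64 ± 0.79 (adjusted p = 0.149, 0.0634 and 0.962). Of 8 T and NK cell genes 4 were higher in the table, with a median of 0.09, whereas 1 of 10 were higher in the scanner files, with a median of -3.55. Klrd1, an NK receptor gene, was not well above background in KO and was at least 2.89-fold lower there in the table (adjusted p = 0.0490), and it differed by -6.67 ± 2.09 in the scanner files. In the table it was tested only through the WT arrays, so its direction was set by the filter.

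The 9 platelet genes, summed in the same way, were at 7.01 (value table) and 6.85 in WT and 7.87 and 8.01 in KO, and at 4.44 and 4.47 in fetal liver WT and KO. In marrow most of these sums was Pf4, at 6.52 (value table) and 6.04 in WT and 7.24 and 7.25 in KO. In fetal liver Pf4 was lower in KO (2.69 in WT, 1.08 in KO) and Gp9 was higher (3.04 and 3.64), so the near-equal sums hide opposite differences. The scanner file of WT replicate 1 from bone marrow gave a sum of 2.50, below that of every other array. B lymphoid genes summed to 8.81 and erythroid genes to 11.11 in that file, above every other array. The same held for the monocyte, macrophage and dendritic genes (9.88), the T and NK cell genes (7.93) and the other integrin genes (7.83). The remaining lists, neutrophil genes included (10.90), did not have their highest sum there.

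**Figure D4:**
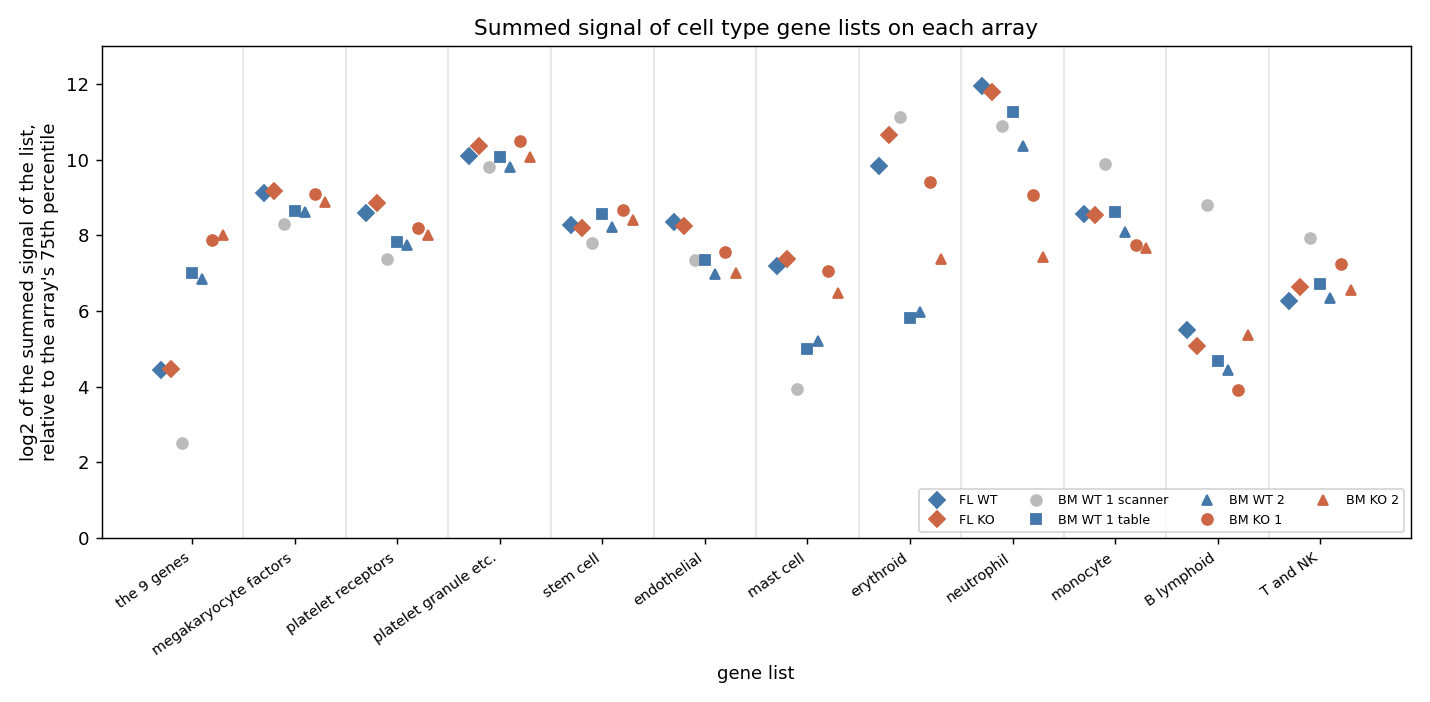
Log2 of the summed signal of each gene list relative to the array's 75th percentile (y axis) for the 9 genes and 11 other lists (x axis) on each array (diamonds fetal liver, squares and circles bone marrow pair 1, triangles bone marrow pair 2; blue WT, red KO, grey the scanner file of bone marrow WT replicate 1). For the 9 genes the red bone marrow points, 7.87 and 8.01, lie above the blue ones, 7.01 and 6.85, and the grey point, 2.50, is the lowest. Signals were summed before taking the log, so the brightest genes of a list weigh most.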

How the data were processed

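From each sample 10 ng of RNA was, per the labels' protocols, labelled with Cy3 and hybridised to 1-colour Agilent arrays. The deposited scanner files hold spot intensity; the submitters' processing notes name Agilent Feature Extraction 10.7.1.1. The authors' value table holds a linear ratio per probe; 5 of its columns equal the scanner signal over a fixed number per array, and its scale and centring are not stated. No genome build was needed for the probes.

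Values were log2(gProcessedSignal) minus the array's 75th percentile, without control spots and outlier spots. RefSeq accessions named 26762 of 55681 probes. A gene was tested where its probe was well above background on all arrays of at least 1 group. Where only 1 group met this, the filter favours a higher level in that group. The table's column of bone marrow WT replicate 1 has no such flag, and a level above -3.7 took its place (99.1% agreement with the flags of the other array of that slide). limma 3.58.1 (lmFit, eBayes) was run in R 4.3.3 and was tested on simulated data. A group wholly below background was set to each array's lowest signal above background, or its own if higher, and gives a bound. Same-numbered bone marrow arrays share a slide per the file headers; their deviations from the group means correlated at 0.56 across 12783 genes in the table and 0.05 in the scanner files. Alternatives were the value table, normexp (on the median signal, where the mean had been planned), quantile normalization, other filters, the mean over probes, the slide block and leaving out each bone marrow array. The number of arrays limits the precision.

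The members and gene lists were chosen with earlier results of these data known. Named besides the 9 genes were Trim28, Kit and Ly6a, genes of each list that passed in either source without the block or else the 3 furthest apart in the table, and the 5 genes nearest in profile. Some genes stand in more than 1 list, and 1 gene of the transcription factor list is not reported here.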

Additional observations from a re-analysis of the deposited data

Results flagged for a closer look

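For 3 of the 9 genes KO lay on opposite sides of WT in the 2 tissues. In both bone marrow pairs, in both sources, KO was higher than WT, and in fetal liver KO was lower. That pattern held for 13.3% of all genes in the table. By the scanner files it held for 5 of the 9, Gp1bb and Ppbp included, and for 1638 of 13661 genes. In the value table the bone marrow effect minus the fetal liver effect was 2.01 for Gp5 (limma adjusted p = 0.405, and 0.103 with the slide block), 2.56 for Gp1ba (limma adjusted p = 0.442, and 0.0393 with the slide block) and 2.57 for Pf4 (limma adjusted p = 0.257, and 0.0452 with the slide block). With the block 1.29% of all genes were called in that direction. The fetal liver side rests on 1 array per genotype.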

How the results depend on the processing

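Of the values that answer a comparison, 80 lay within 1 SD between the slides of the main value or, for counts, within 1.5 times of it. The other 29 were counts of genes over the whole array. That SD is wide where the scanner file in doubt enters: the median KO minus WT of the 9 genes in bone marrow kept its sign but was 4.27 by the scanner files, 2.95 after normexp, 0.90 by the table and 0.81 to 7.33 without single arrays. The median difference between tissues' KO effects was 4.59, 2.84, 1.19 and 1.13 to 6.75, and that of bone marrow against fetal liver 1.63, 1.38, 2.73 and 0.47 to 2.75. For KO minus WT in bone marrow, 0 genes passed by the scanner files, 112 by the value table and 81 in the table after quantile normalization. Leaving out single bone marrow arrays gave 0 to 2391 (scanner files) and 88, 293, 656 and 545 (table, without WT 1, KO 1, WT 2 and KO 2). For the difference between the tissues' KO effects, 0 genes passed in both sources, 89 in the quantile-normalized table, and without single arrays 0 to 1438 (scanner files) and 1, 1, 212 and 289 (table, same order). For bone marrow against fetal liver, 287 genes passed by the scanner files, 3089 by the table, 182 after normexp, 2924 in the quantile-normalized table, and without single arrays 0 to 1553 and 1561, 1574, 1169 and 1696. With the slide as a replicate block, the table gave 981 genes for KO minus WT in bone marrow, 375 for the difference between tissues and, as a random block, 825 for bone marrow against fetal liver. The block changed no other call of the 9 genes than those given for Gp5, Gp9, Gp1ba and Pf4, and for Gp5, Gp1ba and Itgb3 between tissues.

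Signs turned in 22 of the values for single genes, none of which passed. In bone marrow, Itgb3 was -0.26 (scanner files) and -0.26 (table) without WT replicate 1, and Ppbp -0.0814 in the table without WT replicate 2. Between tissues' KO effects, without WT replicate 1, Itgb3 was -0.005 and -0.0034 and Vwf -0.10 and -0.10, and Vwf was -0.50 in the table without KO replicate 2. For bone marrow against fetal liver, Gp9 was 0.71 in the table, with or without the random replicate block, 0.98 in the quantile-normalized table, 0.82 by the scanner files without WT replicate 1, and 0.82, 0.60, 0.77 and 0.65 in the table without WT 1, KO 1, WT 2 and KO 2. Ppbp was -0.0169 after normexp and -0.19, -0.40 and -0.26 by the scanner files without KO 1, WT 2 and KO 2. Without WT 2, Itga2b was -1.19 and Pf4 -0.33. Over the omissions of single arrays in the scanner files these results ranged as follows: -0.26 to 0.59 for Itgb3 in bone marrow, -0.005 to 0.84 for Itgb3 and -0.10 to 6.53 for Vwf between KO effects, and -1.58 to 0.82 for Gp9, -0.40 to 1.31 for Ppbp, -1.19 to 2.64 for Itga2b and -0.33 to 4.96 for Pf4 between tissues. The cause was not tested. The value table's quantile normalization and single-array omissions were chosen after seeing the data.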

Other observations

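Of the 5 CXC chemokine genes listed beside Pf4 and Ppbp, Cxcl1 and Cxcl2 were tested in bone marrow. Cxcl1, a neutrophil attractant, was not well above background in WT and was at least 3.54-fold higher in KO in the value table (limma adjusted p = 0.0566, and 0.00923 with the slide block). With the block 506 of 12783 genes rose. Cxcl1 was tested there only through the KO arrays, so its direction was set by the filter. Cxcl2 differed by 1.34 ± 0.72 (adjusted p = 0.644). The scanner files gave 2.82 ± 1.23 for Cxcl1 and 1.07 ± 0.94 for Cxcl2, and neither passed. None of the 5 was above background in fetal liver, where Pf4 was.

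Of 24 integrin subunit genes other than Itga2b and Itgb3, 16 were tested in the table and 10 were higher in KO marrow, with a median of 0.13. In the scanner files 9 of 17 were higher, with a median of 0.12. By limma with the slide block 4 rose and 1 fell in the table, where 506 and 475 of 12783 genes did. Itgb6, a subunit found mainly in epithelia, rose by 3.19 ± 0.30 in the table (limma adjusted p = 0.0224) and differed by 4.32 ± 0.97 in the scanner files (adjusted p = 1.00). It was at -3.82 and -3.25 in WT, above background on 1 of these 2 arrays, and at -0.28 and -0.40 in KO.

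The genes whose centred profile over the 6 arrays of the value table lay nearest to the mean profile of the 9, by root mean square distance among 13499 genes, were Rab6b (0.12), Slc18a2 (0.15), Adgrl4 (0.16), Ggt5 (0.17) and Mrgpre (0.18). The 9 genes themselves lay 0.34 (Itga2b, rank 43) to 1.10 (Pf4, rank 2014) from their mean, so many other genes lay nearer to it. In the scanner files the nearest were Tgfbr3 (0.22), Tfr2 (0.36), Gucy1a1 (0.37), Trim47 (0.37) and Trpc6 (0.45). Each of these was lowest in the scanner file in doubt, from -4.09 (Gucy1a1) to -5.01 (Tfr2) after centring.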
